A study of Homo sapiens with 18 samples.

Results

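TIFAB encodes a small forkhead-associated domain protein that restrains innate immune signalling. It was followed here as 1 gene among 5069 distinct sets of expression values, of which 2262 had a gene symbol that the table settles. The gene was chosen with its levels known, and the choice used its mean level in the parental cells of both lines. Its own levels are therefore given as a description, with no test, and tests are given only for other genes.

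RNA sequencing measured transcripts of OCI-AML3 and OCI-AML2, established human acute myeloid leukaemia cell lines. The comparisons ask how loss of caspase-2, a protease of stress-induced cell death encoded by CASP2, changes expression when the leukaemia does or does not carry mutant NPM1. OCI-AML3 carries the NPM1c+ mutation, which places nucleophosmin in the cytoplasm, and OCI-AML2 carries wild-type NPM1. In each line, 2 clones labelled as CASP2 knockouts, made with CRISPR/Cas9, were set against the parental cells, giving 6 groups of 3 libraries. The groups were OCI-AML3 clone 1, OCI-AML3 clone 2, OCI-AML3 parental, OCI-AML2 clone 1, OCI-AML2 clone 2 and OCI-AML2 parental. No group received an agent, and every group was grown in serum-containing RPMI medium for under 2 weeks. Each knockout group is 1 clone, so a difference between a clone and its parental cells cannot be told apart from a difference that arose in the founding of that clone. Nothing in the labels says that the 3 libraries of a group came from separate cultures, so p-values measure only the spread between these samples.

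Values are TPM, transcript abundance scaled by length and library size, and the number of reads behind them is unknown. Genes had been selected for a difference before deposit, and those in the table cover 170141 to 199403 TPM of each library. CASP2 mRNA, the check of the targeted gene, stood at 26.34, 27.05 and 27.83 TPM in OCI-AML3 clone 1 and at 31.09, 35.39 and 29.82 TPM in OCI-AML3 clone 2, against 30.11, 28.12 and 28 TPM in OCI-AML3 parental cells (log2 differences -0.08 and 0.15, limma adjusted p = 0.537 and 0.24). In OCI-AML2 it fell to 3.50 ± 0.470 TPM in clone 1 and 4.45 ± 1.02 TPM in clone 2, against 36.1 ± 1.07 TPM in parental cells (SD, n = 3 each; limma adjusted p = 1.7e-13 and 4.2e-13). CASP2 mRNA did not pass the test as lower in the OCI-AML3 libraries labelled as knockouts, although every clone 1 library lay below every parental one by at least 0.17 TPM, and directions drawn from those clones rest on their labels. Of 15 myeloid marker genes, 10 stood in the table and 5 were settled, among them CD68 at group means of 188 to 823 TPM and FCGR1A at 28.3 to 133 TPM. The summed level of the 5 lay between 306 and 385 TPM in the OCI-AML3 clones and between 893 and 1039 TPM in OCI-AML3 parental cells. It lay between 579 and 918 TPM in the OCI-AML2 clones and between 823 and 868 TPM in OCI-AML2 parental cells. CD68 makes up most of this sum, and the markers did not move one way. In the OCI-AML3 clones 2 of the 5 were higher (CD14 and ANPEP) and 3 lower (CD68, FCGR1A and ITGAM). Of all tested sets, 28.7% were higher and 38.3% lower there. ITGAM was near the floor, at 0.02 and 0.0533 TPM in those clones, against 0.2 TPM in OCI-AML3 parental cells. ANPEP had 58.7 and 67.0 TPM in the OCI-AML3 clones, against 29.9 TPM in OCI-AML3 parental cells. In the OCI-AML2 clones 1 of the 5 was higher (ITGAM) and 2 lower (CD14 and FCGR1A), beside 23.8% and 14.6% of all tested sets. Of 11 lymphoid, 10 erythroid or megakaryocytic and 8 non-blood markers, 1 each was settled. PAX5 reached a group mean of 4.03 TPM, ITGA2B 2.82 TPM and COL1A2 3.27 TPM, and the highest mean of COL1A2 was that of OCI-AML3 clone 1. The part of these markers in the TIFAB values was not tested.

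TIFAB is a relative of TIFA, an adaptor that links sensing of bacterial sugars to the ubiquitin ligase TRAF6. Toll-like receptors and the interleukin-1 receptor also signal through TRAF6, which leads to NF-κB and its inflammatory target genes. TIFAB lowers TRAF6 protein and thereby dampens this route. The gene lies in a stretch of the long arm of chromosome 5 that is commonly lost in myelodysplastic syndrome and acute myeloid leukaemia, and TIFAB loss in mouse blood stem cells sensitises them to Toll-like receptor signals.

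In GENCODE release 29, TIFAB has 1 transcript of 2 exons on chromosome 5, with 5923 exon bases, 483 of them coding. DCANP1, a gene named for its expression in dendritic cells, is a single-exon gene on the same strand. Of its 3135 bases, 3131 (99.9%) lie inside TIFAB's exons, outside the coding part, and the shared bases make up 52.9% of TIFAB's exon bases. Reads from the shared bases cannot be told apart, so the levels of both genes are uncertain. The RefSeq promoter of TIFAB (GRCh38.p14, chr5:135452400-135452601, minus strand) is shown because binding motifs of the factors named with this pathway were searched in it. The 202 bases run 5′ to 3′ from 250 to 49 bases before the RefSeq start, and capitals mark the match to the PU.1 motif.

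TIFAB promoter: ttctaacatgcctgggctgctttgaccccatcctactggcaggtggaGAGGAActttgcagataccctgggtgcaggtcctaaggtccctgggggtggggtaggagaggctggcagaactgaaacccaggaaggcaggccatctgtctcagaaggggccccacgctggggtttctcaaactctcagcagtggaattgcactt

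The window held 1 match to GAGGAA, a motif of the myeloid factor PU.1, starting 203 bases before the start and overlapping none of the other motifs searched. This motif occurs on either strand in 19.2% of 27305 RefSeq promoters. The NF-κB core, searched as GGG and CC with 5 bases of any kind between them and found in 46.1% of promoters, had 0 matches, and so had the C/EBP motif TTGCNNAA (7.76%), the AP-1 motif TGANTCA (5.40%) and the interferon response motif, searched as GAAA and GAAA with 2 bases of any kind between them (2.47%). Both strands were read. A match to these letters is a description of the sequence and not a binding site.

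TIFAB mRNA was lower in all 4 clones than in the parental cells of their line, and lower in each OCI-AML3 group than in the OCI-AML2 group of the same kind. In bulk samples such as these, fewer cells that transcribe the gene and less RNA per cell cannot be told apart. OCI-AML3 clone 1 had 1.51, 1.82 and 1.6 TPM and OCI-AML3 clone 2 had 1.86, 2.53 and 1.2 TPM, against 13.53, 11.88 and 13.54 TPM in OCI-AML3 parental cells. Every clone library of OCI-AML3 lay below every parental library, and the ranges of the clones overlapped each other. Clone 1 kept 12.7% of the parental mean and clone 2 kept 14.4%, which is 7.90-fold and 6.97-fold lower. On the log2(TPM + 1) scale the differences from parental cells were -2.40 for clone 1, with a pooled SD of 0.0937 between libraries, and -2.31 for clone 2, with a pooled SD of 0.252. These values are those of 2 of the 3 lines printed TIFAB. They also stand in 1 line printed NLN, another chromosome 5 gene, with the OCI-AML3 clone 1 values as 1.82, 1.6 and 1.51 TPM. The repeated symbol and this order tie the values to TIFAB. The third TIFAB line holds other values, which the replicate order ties to another gene. These give log2 differences of 0.023 and -0.038 in the OCI-AML3 clones.

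OCI-AML2 clone 1 had 6.64, 7.7 and 6.34 TPM and OCI-AML2 clone 2 had 8.79, 9.28 and 10.33 TPM, against 30.05, 27.58 and 28.62 TPM in OCI-AML2 parental cells. The 3 groups of this line did not overlap, with clone 1 lowest and parental cells highest. Clone 1 kept 24.0% of the parental mean and clone 2 kept 32.9%, which is 4.17-fold and 3.04-fold lower. The log2 differences from parental cells were -1.92 for clone 1 and -1.51 for clone 2 (pooled SD 0.1001 and 0.0869). OCI-AML2 clone 2 stood 1.37-fold above clone 1, with a gap of 1.09 TPM between their nearest libraries.

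OCI-AML3 parental cells held 45.2% of the TIFAB level of OCI-AML2 parental cells, a log2 difference of -1.09 (pooled SD 0.0829). The OCI-AML3 parental mean of 12.98 ± 0.956 TPM was also 1.37-fold above that of OCI-AML2 clone 2, with 1.55 TPM between the nearest libraries. Over the 6 groups, the order from high to low was OCI-AML2 parental (28.8 ± 1.24 TPM), OCI-AML3 parental, OCI-AML2 clone 2 (9.47 ± 0.787 TPM), OCI-AML2 clone 1 (6.89 ± 0.715 TPM), OCI-AML3 clone 2 (1.86 ± 0.665 TPM) and OCI-AML3 clone 1 (1.64 ± 0.159 TPM; SD, n = 3 each). The OCI-AML3 clones were the only neighbours in this order whose libraries overlapped. Of all 4413 sets tested, 38.8% likewise had every OCI-AML3 clone library below every OCI-AML3 parental library. The share was 15.7% for the OCI-AML2 clones below OCI-AML2 parental cells and 43.8% for OCI-AML3 parental below OCI-AML2 parental cells. Because the gene was chosen on its levels, nothing is read from these shares.

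**Figure D1:**
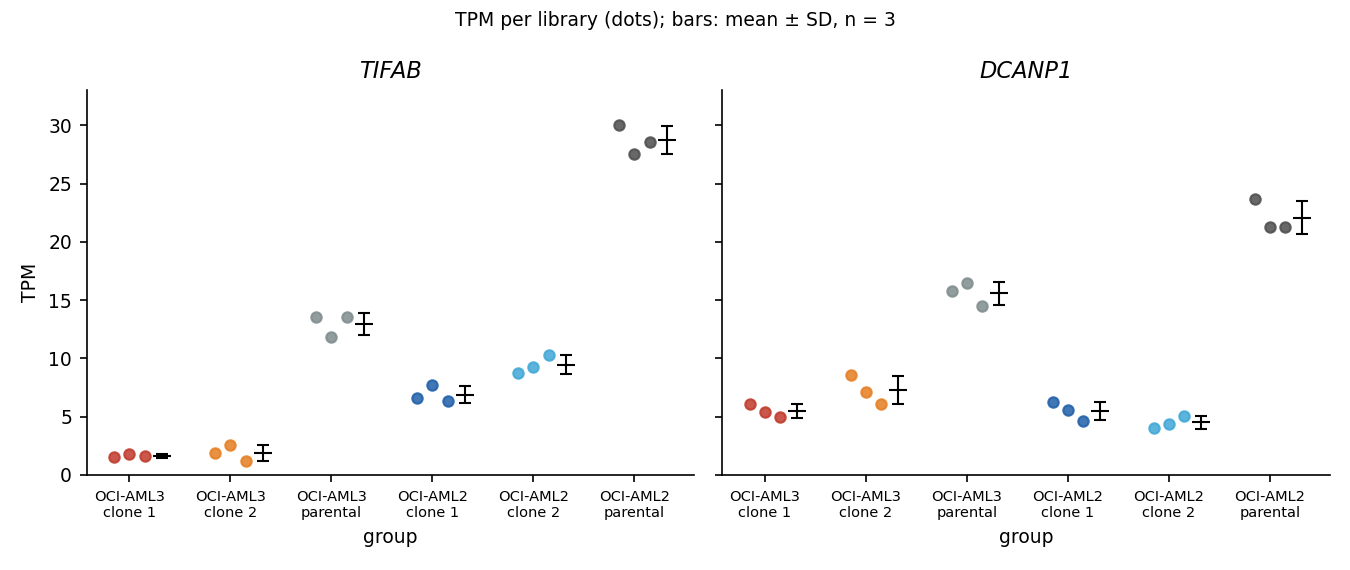
TPM of TIFAB (left) and of the overlapping gene DCANP1 (right) in each library of the 6 groups, with bars for mean ± SD (n = 3). TIFAB is below 3 TPM in every OCI-AML3 clone library, while DCANP1 is at 4.95 TPM or more there.

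The overlapping gene DCANP1 fell in all 4 clones too, but in other proportions. It had 6.08, 5.41 and 4.95 TPM in OCI-AML3 clone 1 and 8.55, 7.11 and 6.13 TPM in OCI-AML3 clone 2, against 15.75, 16.47 and 14.52 TPM in OCI-AML3 parental cells. In OCI-AML2 it had 6.26, 5.57 and 4.64 TPM in clone 1 and 4.04, 4.4 and 5.09 TPM in clone 2, against 23.69, 21.3 and 21.26 TPM in parental cells. All clone libraries lay below all parental libraries of their line. The log2 differences were -1.36 and -1.01 in the OCI-AML3 clones and -1.84 and -2.07 in the OCI-AML2 clones (limma, adjusted p = 4.8e-09, 2.5e-07, 1.9e-10 and 2.7e-11). OCI-AML3 parental cells were lower than OCI-AML2 parental cells by a log2 difference of -0.48 (limma adjusted p = 0.00074). Reads from the shared bases may count for either gene, and TIFAB was chosen on its levels. These DCANP1 p-values are therefore not independent of that choice and are no separate support for the TIFAB differences.

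Where TIFAB lost proportionally more in the OCI-AML3 clones, DCANP1 lost more in the OCI-AML2 clones. The ratio of TIFAB to DCANP1 was 0.303 ± 0.0475 in OCI-AML3 clone 1 and 0.256 ± 0.0868 in clone 2, against 0.838 ± 0.107 in OCI-AML3 parental cells. It was 1.27 ± 0.181 in OCI-AML2 clone 1 and 2.10 ± 0.0732 in clone 2, against 1.30 ± 0.0395 in OCI-AML2 parental cells (SD, n = 3 each). The summed TPM of both genes averaged 7.12 and 9.13 in the OCI-AML3 clones, against 28.6 in OCI-AML3 parental cells, and 12.4 and 14.0 in the OCI-AML2 clones, against 50.8 in OCI-AML2 parental cells. The sum was lower in every clone than in its parental cells, as each gene was. DCANP1's correlation with TIFAB over the 18 libraries was 0.688, which placed it 393rd of 2066 genes.

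Genes with the pattern most like TIFAB were ranked by Pearson's correlation of log2(TPM + 1) over 18 libraries among 2066 tested genes with a settled symbol. The libraries fall into 6 groups, so these correlations describe the group pattern and have no p. IL17RA, a receptor chain for interleukin-17, was the most alike (r = 0.972), with 57.2 ± 0.752 and 65.5 ± 3.98 TPM in the OCI-AML3 clones and 123 ± 2.78 TPM in OCI-AML3 parental cells. In OCI-AML2 it had 108 ± 12.6 and 133 ± 8.60 TPM in the clones and 171 ± 3.00 TPM in parental cells. SLC16A6, a member of the monocarboxylate transporter family (0.966), KCNA3, a voltage-gated potassium channel of leukocytes (0.960), TSPAN33, a tetraspanin (0.959), and DOCK8, an immune-cell activator of the GTPase CDC42 (0.957), came next. FCGR1A, the high-affinity IgG receptor of monocytes (0.954), SLC9B2, a sodium-proton exchanger (0.954), and IDS, a lysosomal sulfatase (0.952), completed the first 8.

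KCNA3 differed between clones and parental cells by folds of similar size to those of TIFAB, with 0.827 ± 0.155 and 0.750 ± 0.286 TPM in the OCI-AML3 clones, against 4.96 ± 0.282 TPM in OCI-AML3 parental cells. It had 5.28 ± 0.501 and 4.79 ± 0.875 TPM in the OCI-AML2 clones, against 22.6 ± 1.47 TPM in OCI-AML2 parental cells. IL17RA spanned a narrower range, its OCI-AML3 clone 1 mean being 2.15-fold below OCI-AML3 parental cells. IDS did not share the parental difference, with 61.4 TPM in each parental line. The most opposite pattern was that of SULF2, an extracellular sulfatase (r = -0.967). Its level was 11.9 ± 0.507 and 13.5 ± 0.272 TPM in the OCI-AML3 clones, against 2.61 ± 0.318 TPM in OCI-AML3 parental cells, and 4.29 ± 0.392 and 4.79 ± 0.422 TPM in the OCI-AML2 clones, against 0.340 ± 0.155 TPM in OCI-AML2 parental cells. SLC2A5, a fructose transporter (-0.958), FAM20C, a kinase of secreted proteins (-0.952), and MAMDC4 (-0.950) followed. In all, 39 genes had r above 0.9 and 44 had r below -0.9, around a median of 0.0803.

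**Figure D2:**
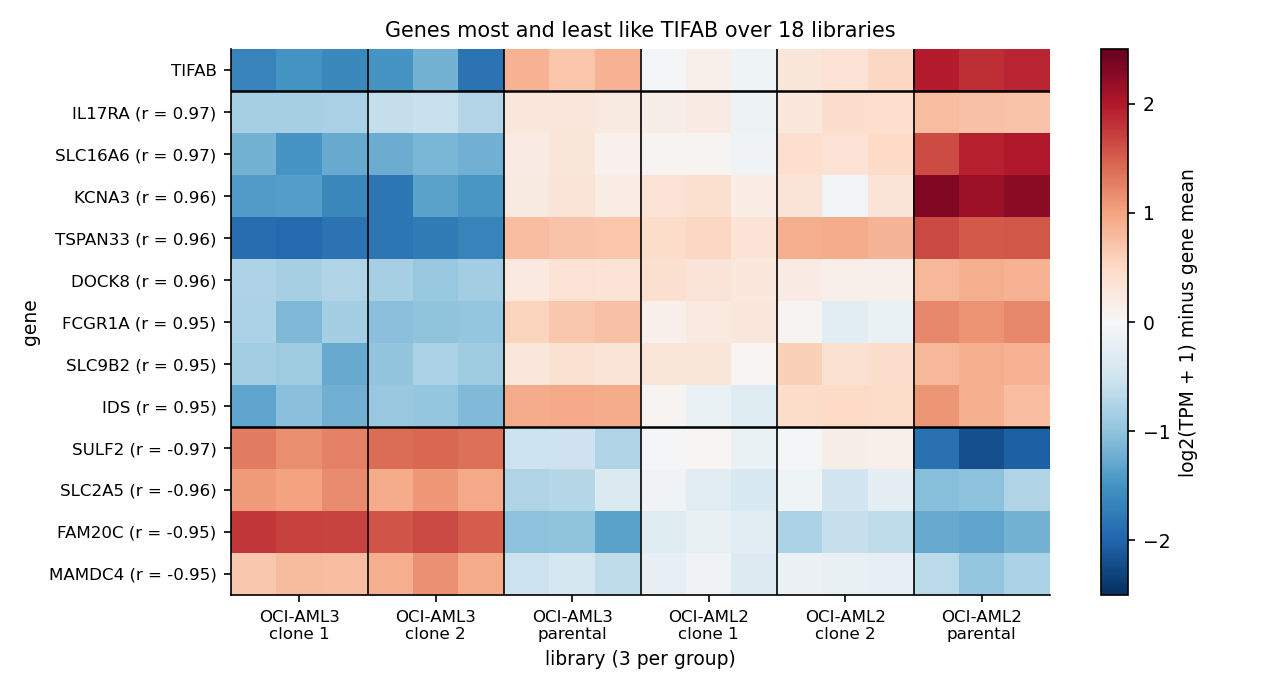
Log2(TPM + 1) minus each gene's mean over the 18 libraries (colour) for TIFAB, the 8 genes most like it and the 4 most opposite, with libraries in columns by group. In the like genes, as in TIFAB, the OCI-AML3 clones are the lowest columns and OCI-AML2 parental the highest or near it (IDS is as high in OCI-AML3 parental cells).

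The other genes of the pathway were taken from 3 lists by role, 126 genes in all. Of these, 49 symbols stood in the table, 24 were settled and 23 passed the minimum level for testing. TIFA was printed in the table, but its values could not be settled. TRAF6, TRAF2, ALPK1, MYD88, IRAK1 and IRAK4 were not analysed here. A gene was called in a line when limma's adjusted p was under 0.05 in both clones in the same direction. In the OCI-AML3 clones 28.7% of all tested sets were called higher and 38.3% lower, and in the OCI-AML2 clones 23.8% were called higher and 14.6% lower. Between the parental lines 47.2% were called higher in OCI-AML3 and 43.4% lower. Over the 3 lists, 15 of 23 genes were higher and 4 lower in the OCI-AML3 clones (median log2 difference 1.19, against -0.06 over all tested sets). In the OCI-AML2 clones 10 were higher and 9 lower (median 0.42, against 0.06). In OCI-AML3 parental cells 7 were higher and 14 lower than in OCI-AML2 parental cells (median -0.60, against 0.08). The parental comparison shares its libraries with the clone comparisons, so these counts are not independent of each other. The clone change differed between the lines in 18 of the 23 genes, against 61.3% of all tested sets, where all 4 pairings of clones had to differ in the same direction.

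Among receptors upstream of TRAF6 and their partners, 5 of 9 rose and 1 fell in the OCI-AML3 clones, and 3 rose and 5 fell in the OCI-AML2 clones. Over all tested sets, 28.7% rose and 38.3% fell in the OCI-AML3 clones, and 23.8% rose and 14.6% fell in the OCI-AML2 clones. CD14, the co-receptor that hands lipopolysaccharide to TLR4, showed the largest rise. Its level was 42.1 ± 1.30 and 50.2 ± 2.81 TPM in the OCI-AML3 clones, against 0.813 ± 0.440 TPM in OCI-AML3 parental cells (limma adjusted p = 1.1e-15 and 5.6e-16). In OCI-AML2 it fell to 3.63 ± 0.0656 and 3.09 ± 0.347 TPM in the clones, against 6.44 ± 0.945 TPM in parental cells (limma adjusted p = 0.00018 and 9.8e-06). TLR4, the lipopolysaccharide receptor, rose in both lines, to 2.30 ± 0.539 and 2.21 ± 0.240 TPM in the OCI-AML3 clones, against 0.323 ± 0.0404 TPM in OCI-AML3 parental cells. In the OCI-AML2 clones it reached 9.86 ± 0.486 and 8.93 ± 0.645 TPM, against 5.33 ± 0.140 TPM in OCI-AML2 parental cells (highest limma adjusted p over the 4 clones 1.3e-05). CD36, a scavenger receptor that partners Toll-like receptors, rose in the OCI-AML3 clones (40.4 and 34.5 TPM, against 1.12 TPM in OCI-AML3 parental cells) and was not called in the OCI-AML2 clones (0.0867 and 1.06 TPM, against 0.190 TPM in OCI-AML2 parental cells).

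TLR2, the receptor for bacterial lipopeptides, moved in opposite directions in the lines. It rose to 148 ± 4.81 and 130 ± 5.79 TPM in the OCI-AML3 clones, against 68.7 ± 4.85 TPM in OCI-AML3 parental cells, and fell to 47.0 ± 2.76 and 41.9 ± 5.02 TPM in the OCI-AML2 clones, against 105 ± 5.47 TPM in OCI-AML2 parental cells. TLR9, the receptor for bacterial DNA, likewise rose in the OCI-AML3 clones (2.37 and 3.06 TPM, against 1.12 TPM in parental cells) and fell in the OCI-AML2 clones (8.20 and 10.0 TPM, against 13.2 TPM in parental cells). IL1RAP, the shared co-receptor of the interleukin-1 family, did the reverse, with 6.61 and 7.01 TPM in the OCI-AML3 clones, against 15.9 TPM in OCI-AML3 parental cells, and 28.2 and 40.7 TPM in the OCI-AML2 clones, against 20.6 TPM in OCI-AML2 parental cells. IL1R1, the interleukin-1 receptor itself, rose in the OCI-AML2 clones (3.04 and 2.39 TPM, against 0.447 TPM in parental cells). In the same clones NLRP12, a negative regulator of NF-κB signalling, fell (1.36 and 0.720 TPM, against 5.53 TPM), and so did CD180, a Toll-like receptor homologue of B cells and myeloid cells (16.9 and 29.6 TPM, against 53.5 TPM). These 3 genes were not called in the OCI-AML3 clones. Between the parental lines 2 receptors were higher in OCI-AML3 and 6 lower, with CD180 at 0.177 TPM in OCI-AML3 and 53.5 TPM in OCI-AML2. Of all tested sets, 47.2% were higher in OCI-AML3 parental cells and 43.4% lower.

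The relay downstream of the receptors held 2 settled genes of 40 listed. TNFAIP3 encodes A20, the ubiquitin-editing enzyme that shuts off TRAF6 signalling and is itself induced by NF-κB. It had 16.7 ± 0.217 and 16.7 ± 0.554 TPM in the OCI-AML3 clones, against 2.70 ± 0.153 TPM in OCI-AML3 parental cells (limma adjusted p = 3.3e-15 and 3.4e-15). In OCI-AML2 it had 20.8 ± 0.414 and 28.8 ± 2.64 TPM in the clones, against 13.7 ± 0.470 TPM in parental cells (limma adjusted p = 1.2e-06 and 3.6e-10). TNFAIP3 thus rose in all 4 clones, in which TIFAB was lower, while across the parental lines it was lower in OCI-AML3 (log2 difference -1.99), as TIFAB was. The clone and parental comparisons share libraries, and a link between these genes was not tested. PELI2, a Pellino ubiquitin ligase of interleukin-1 signalling, fell to 0.553 and 0.503 TPM in the OCI-AML3 clones, against 3.34 TPM in OCI-AML3 parental cells. It stood at 10.0 and 7.35 TPM in the OCI-AML2 clones, against 8.86 TPM in OCI-AML2 parental cells, and was not called there.

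Targets of NF-κB made up the largest settled list, with 12 tested genes. In the OCI-AML3 clones 9 rose and 2 fell (median log2 difference 1.51), and in the OCI-AML2 clones 6 rose and 4 fell (median 0.68). The shares of all tested sets were 28.7% higher and 38.3% lower in OCI-AML3, and 23.8% and 14.6% in OCI-AML2. BCL2A1, an anti-apoptotic BCL2 relative, rose to 40.6 ± 5.42 and 38.7 ± 4.76 TPM in the OCI-AML3 clones, against 1.47 ± 0.297 TPM in OCI-AML3 parental cells. In the OCI-AML2 clones it rose to 21.8 ± 2.42 and 23.8 ± 3.36 TPM, against 4.88 ± 1.03 TPM in OCI-AML2 parental cells (highest limma adjusted p over the 4 clones 1.4e-09). CCL2, a monocyte chemoattractant, reached 49.7 and 51.1 TPM in the OCI-AML3 clones, against 13.1 TPM in OCI-AML3 parental cells, and 18.04 and 146 TPM in the OCI-AML2 clones, against 0.553 TPM in OCI-AML2 parental cells. PTGS2, the inducible cyclooxygenase, LTB, which encodes lymphotoxin beta, TNF, the cytokine, and MMP9, a gelatinase, also rose in both lines. Their mean log2 differences in the OCI-AML3 clones were 2.40, 0.95, 1.19 and 1.83 in that order, and in the OCI-AML2 clones 1.31, 2.00, 0.72 and 1.84.

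Other targets went against this direction. IL1B, the cytokine interleukin-1 beta, fell in both lines, to 47.1 ± 2.25 and 58.3 ± 2.69 TPM in the OCI-AML3 clones, against 92.8 ± 12.8 TPM in OCI-AML3 parental cells, and to 8.57 ± 0.469 and 18.5 ± 2.41 TPM in the OCI-AML2 clones, against 30.7 ± 0.203 TPM in OCI-AML2 parental cells. PLAU, the urokinase plasminogen activator, also fell in both (mean log2 differences -0.90 in OCI-AML3 and -0.75 in OCI-AML2). IER3, an immediate early survival gene, rose in the OCI-AML3 clones (82.4 and 83.0 TPM, against 18.3 TPM in parental cells) and fell slightly in the OCI-AML2 clones (14.7 and 15.3 TPM, against 18.6 TPM). IL32, a cytokine gene, rose in the OCI-AML3 clones (2.503 and 2.71 TPM, against 0.327 TPM) and fell in the OCI-AML2 clones (6.13 and 2.49 TPM, against 37.1 TPM). CCL5, a chemokine gene, rose in the OCI-AML3 clones (mean log2 difference 1.58) and was not called in the OCI-AML2 clones. PTX3, an acute-phase pattern recognition gene, was called in neither line. Between the parental lines 5 of the 12 genes were higher in OCI-AML3 and 6 lower, beside 47.2% and 43.4% of all tested sets.

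**Figure D3:**
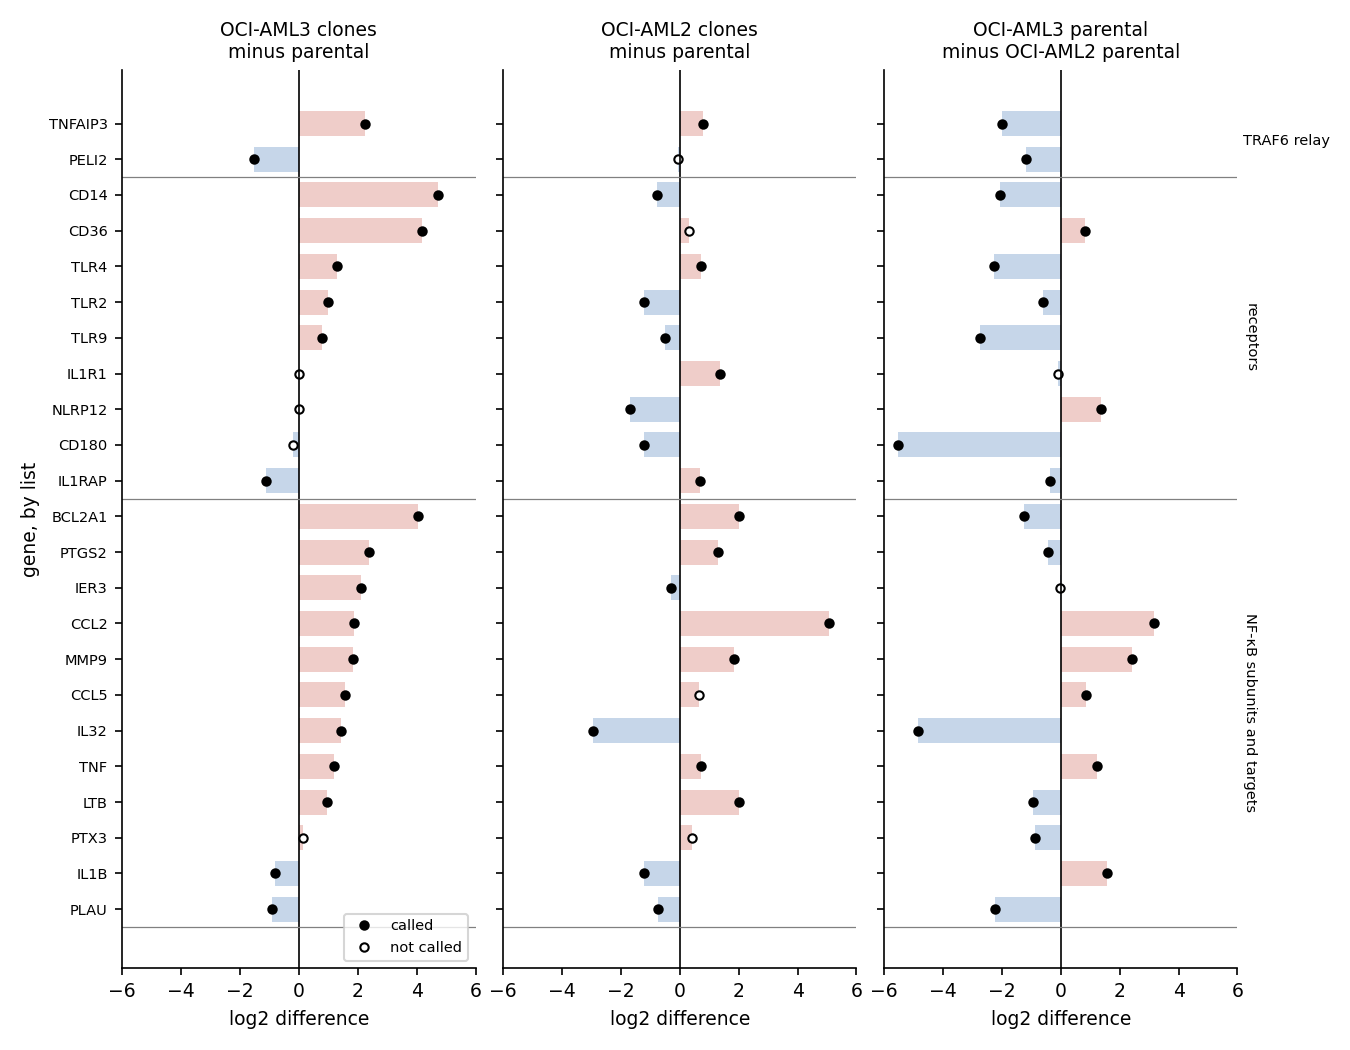
Log2 difference on the log2(TPM + 1) scale of the 23 tested pathway genes, by list, in the OCI-AML3 clones (mean of both clones), the OCI-AML2 clones and between the parental lines; filled points were called. Bars to the right of 0 are higher in the clones or, in the right panel, in OCI-AML3 parental cells. In the left panel 15 genes and in the middle panel 10 are called higher, beside 28.7% and 23.8% of all tested sets.

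Around TIFAB on chromosome 5, the 10 nearest genes on each side that were settled and tested, DCANP1 left out, included genes of both directions. Most genes in between had no tested set with a settled symbol. These 10 and 10 lay 6 to 329 places before TIFAB and 13 to 186 places after it in RefSeq gene order, so they span a wide region. Of these 20 genes, 8 were higher and 8 lower in the OCI-AML3 clones (median log2 difference 0.09), where 28.7% of all tested sets were higher and 38.3% lower. In the OCI-AML2 clones 4 were higher and 6 lower (median 0.03), where 23.8% of all tested sets were higher and 14.6% lower. CDO1, PPIC, PDLIM4, FSTL4, TCF7 and PCDHB13 had OCI-AML2 parental means of 0.05 TPM or less. A fall of these genes could not be seen in OCI-AML2, which limits that median. In OCI-AML3 parental cells 6 were higher and 10 lower than in OCI-AML2 parental cells (median -0.46). The shares of all tested sets in that comparison were 47.2% and 43.4%. SLC22A5, a carnitine transporter gene, and REEP2, a gene of an endoplasmic reticulum protein, fell in both lines, as TIFAB was lower in both. SLC22A5 lies 90 places before TIFAB and REEP2 56 places after it. SLC22A5 had 2.46 ± 0.147 and 2.46 ± 0.510 TPM in the OCI-AML3 clones, against 7.23 ± 0.297 TPM in OCI-AML3 parental cells, and 16.9 ± 2.55 and 12.7 ± 1.33 TPM in the OCI-AML2 clones, against 22.8 ± 1.54 TPM in OCI-AML2 parental cells. REEP2 had 7.95 and 9.73 TPM in the OCI-AML3 clones, against 25.3 TPM, and 16.5 and 9.76 TPM in the OCI-AML2 clones, against 24.3 TPM. GRAMD2B and the retinoid-inducible zinc finger gene CXXC5 rose in both lines.

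TGFBI, an extracellular matrix protein gene, was the nearest gene after TIFAB that was settled and tested. It rose in the OCI-AML3 clones to 25.9 ± 1.63 and 29.5 ± 1.37 TPM, against 4.26 ± 0.0833 TPM in OCI-AML3 parental cells. In the OCI-AML2 clones it fell to 20.3 ± 1.06 and 5.55 ± 0.719 TPM, against 53.9 ± 2.00 TPM in OCI-AML2 parental cells. SPOCK1, a proteoglycan gene, HBEGF, a growth factor gene, and CD14, which is also among the receptors above, took the same opposite directions (mean log2 differences 2.37, 0.53 and 4.72 in OCI-AML3 and -0.66, -0.88 and -0.77 in OCI-AML2).

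Over the whole chromosome, 121 genes other than TIFAB and DCANP1 were settled and tested, 84 before and 37 after TIFAB in RefSeq gene order. In the OCI-AML2 clones 53 (43.8%) were lower, against 14.6% of all tested sets, and 16 were higher, with a median log2 difference of -0.41, against 0.06 over all tested sets. On the other 21 autosomes, the share of lower genes ran from 6.2% to 32.9%. The lower genes were unevenly placed. In 6 blocks of gene order, 16 of 21, 11 of 20, 16 of 20, 2 of 20, 6 of 20 and 2 of 20 genes were lower, and TIFAB lies in the fifth. In the block of TIFAB 2 genes were higher in the OCI-AML2 clones, and the median log2 difference was 0.02 in each clone. This median includes genes with almost no expression in OCI-AML2, in which a fall could not be seen. Among them, FSTL4, TCF7 and PCDHB13 had OCI-AML2 parental means of 0, 0.0067 and 0.05 TPM. In the OCI-AML3 clones 41 of the 121 genes were higher and 47 lower, shares near the 28.7% and 38.3% of all tested sets. These genes too were unevenly placed, with 16 of 20 lower in the fourth block, next to that of TIFAB.

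**Figure D4:**
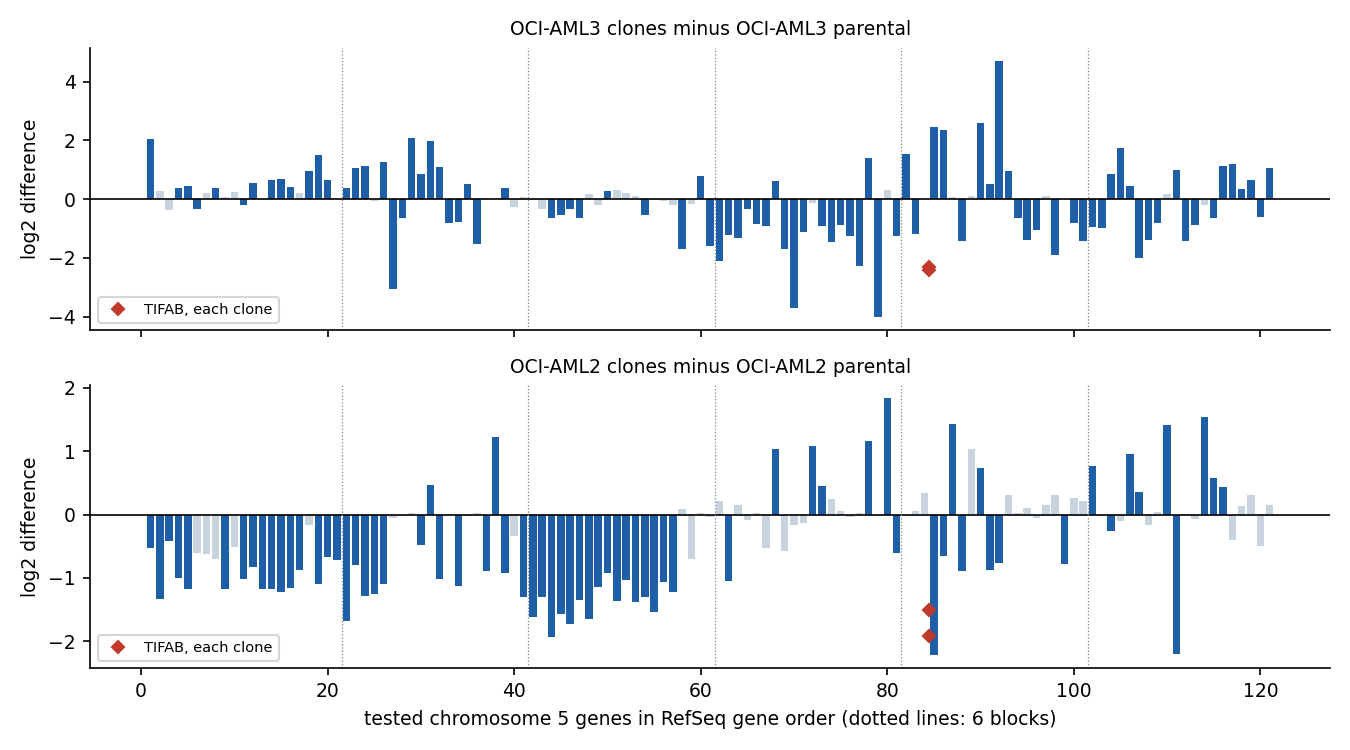
Mean log2 difference of both clones from parental cells for 121 settled and tested chromosome 5 genes in RefSeq gene order (bars, dark where called), in OCI-AML3 (top) and OCI-AML2 (bottom), with each clone's TIFAB value as a diamond. In OCI-AML2 the run of lower genes lies in the first 3 blocks, while TIFAB lies in the fifth block among genes of both directions.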

How the data were processed

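Values are TPM as the authors deposited them, per the file headers. Aligner, counting tool and build: not given in the sources used here. Symbols and values did not match one to one: 6999 lines under 4816 symbols held 5069 distinct sets of 18 values. Symbols were settled by repetition (575 sets), by the OCI-AML3 clone 1 values (1076 sets, where a line reads a, b, c and its twin under another symbol reads b, c, a) or by a single line with a parental log2 ratio under 0.6 (611 sets). This settled 2262 sets (44.6%), and 0 symbols were settled for more than 1 set. The single-line rule uses the parental difference, a filter that all tested sets did not pass. It bears on parental counts and medians of settled genes and on the ranking by likeness to TIFAB. TIFAB stood in 3 lines, of which 2 hold the settled set, and the same set stands in 1 line under NLN. All 18 value columns matched a sample and 0 did not.

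The limma package (version 3.58.1, R 4.3.3) was fitted to log2(TPM + 1) of all 18 libraries, with a mean for each group and an intensity trend. It covered the 4413 sets that reached 1 TPM in 3 libraries or more. Fold changes on this scale understate the change of low genes. P-values were two-sided and Benjamini-Hochberg adjusted over all tested sets, with a threshold of 0.05. Tested named genes were the 4 largest called in each list and comparison, neighbours called in both lines, DCANP1 and CASP2 (28 in all). The 8 genes most like and 4 most opposite to TIFAB were named without a test. Other members of the 3 lists were named so that each has its value; this choice was made with the values seen. Another list is not reported here. The member and the lists were chosen with earlier results of these data known. The alternatives were a pseudocount of 0.1, a minimum of 5 TPM or none, rescaling by medians of ratios and a replicate block. Further ones were no intensity trend, a fit of only the groups compared, and leaving out each library. Symbols as printed were used for the list counts and not for the named genes. The fit was tested on simulated data.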

Additional observations from a re-analysis of the deposited data

Results flagged for a closer look

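Among the 28 tested named genes, which leave out those ranked by likeness to TIFAB, 24 had a clone change that differed between the lines in all 4 pairings of clones, which is the test of the difference itself. Most of these genes were named for large changes, so their count is not set against that of all sets. Values are the mean clone change in OCI-AML3 minus that in OCI-AML2, on the log2(TPM + 1) scale. The overlapping gene DCANP1 differed by 0.77, falling in both lines and less in OCI-AML3, and CASP2 differed by 2.95. Since DCANP1 shares bases with TIFAB, its test is not independent of the choice of TIFAB.

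Receptor genes with a positive difference were CD14 (5.49), CD36 (3.86), TLR2 (2.23), NLRP12 (1.71), TLR9 (1.31), CD180 (1.04) and TLR4 (0.58), and those with a negative one were IL1RAP (-1.81) and IL1R1 (-1.34). In the relay TNFAIP3 differed by 1.47 and PELI2 by -1.47. Among NF-κB targets the difference was 4.39 for IL32, 2.42 for IER3, 2.01 for BCL2A1, 1.09 for PTGS2, -1.06 for LTB and -3.20 for CCL2. Among the neighbours of TIFAB it was 4.67 for TGFBI, 3.03 for SPOCK1, 1.87 for CXXC5, 1.40 for HBEGF and -0.64 for SLC22A5. The difference of TIFAB itself was not tested.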

How the results depend on the processing

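TIFAB was lower than parental in every clone under each setting that kept its settled set. With a pseudocount of 0.1 its log2 differences were -2.91 and -2.79 in OCI-AML3 clones 1 and 2 and -2.05 in OCI-AML2 clone 1. After rescaling by medians of ratios they were -2.26 in OCI-AML3 clone 1, -2.02 in OCI-AML2 clone 1 and -1.22 between the parental lines. Without each library in turn they ran from -2.46 to -2.37 and from -2.48 to -2.14 in OCI-AML3 clones 1 and 2, from -1.99 to -1.87 and from -1.57 to -1.46 in OCI-AML2 clones 1 and 2, and from -1.12 to -1.03 between the parental lines. Clone 2 minus clone 1 ran from -0.074 to 0.27 in OCI-AML3, reversing to -0.074 without OCI-AML3 clone 2 replicate 2, and ran from 0.35 to 0.48 in OCI-AML2. The third line printed TIFAB holds other values, which give 0.023 and -0.038 in the OCI-AML3 clones, 0.90 and -0.57 in the OCI-AML2 clones, -1.56 between the parental lines, and clone 2 minus clone 1 of -0.060 (OCI-AML3) and -1.47 (OCI-AML2). The TIFAB values therefore rest on which line carries the right symbol. With symbols as printed, 45 pathway genes were tested, of which 23 were higher and 13 lower in the OCI-AML3 clones. In the OCI-AML2 clones 14 were higher and 11 lower, and between the parental lines 17 were higher and 24 lower. The share of higher genes was thus smaller in the clones of both lines than with settled symbols (15 and 10 of 23). Of all tested sets, 28.7% were higher and 38.3% lower in the OCI-AML3 clones, and 23.8% and 14.6% in the OCI-AML2 clones. Of the 8 genes most like TIFAB, 2 remained by rank correlation (IL17RA and IDS). The cause of these shifts was not tested. Replicate numbers did not pair the samples (correlations of same-numbered deviations from -0.343 to 0.177), and with a replicate block the counts were the same, 15 higher and 4 lower for OCI-AML3, 10 and 9 for OCI-AML2, and 7 and 14 between the parental lines. The order of the OCI-AML3 clone 1 values differed between repeated lines, so replicate identity in that group is uncertain. Its group means are not affected, but its pairing correlations, left-out libraries and per-library ratios may be. Among 51 comparisons of 28 tested named genes, no call changed in any of 25 settings that tested the gene. These settings did not include symbols as printed, so they say nothing of the uncertainty of the symbols. IL1R1 in the OCI-AML2 clones was not tested with a minimum of 5 TPM, so its call ends there. The genes most like and most opposite to TIFAB were not in this check. Most of the 28 genes were named because they were called, so stable calls were likely from the start. After rescaling by medians of ratios, 1462 of all sets were higher and 1474 lower in the OCI-AML3 clones, against 1267 and 1692, and 910 and 763 in the OCI-AML2 clones, against 1052 and 643. TPM keeps no depth, so the precision of the low OCI-AML3 clone values is unknown.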

Other observations

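In the OCI-AML3 clones 2, 5, 7, 16, 8 and 9 genes were lower in the 6 blocks of chromosome 5 in gene order. In the fourth block, which ends before the block of TIFAB, 16 of 20 genes were lower in both OCI-AML3 clones (median log2 differences -1.16 and -1.23), while 2 of 20 were lower in the OCI-AML2 clones. The first 3 blocks had medians of -1.17, -0.90 and -1.55 in OCI-AML2 clone 1 and -0.67, -0.50 and -1.08 in clone 2. Over the other 21 autosomes the chromosome median ran from 0 to 0.25 in OCI-AML2 clone 1 and from 0 to 0.19 in clone 2. Their share of genes lower in the OCI-AML2 clones ran from 6.2% to 32.9%, and was highest on chromosome 7 (47 of 143 genes). In the OCI-AML3 clones these medians were spread more widely, from -1.06 to 0.97 in clone 1 and from -1.06 to 0.84 in clone 2, and 38.3% of all tested sets were lower there. The blocks were described after the values were seen and were not tested.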
